A study of Mus musculus with 10 samples.

Results

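The adrenergic receptors were described in gonadal white adipose tissue (gWAT), a visceral fat depot next to the reproductive organs, of mice with an inducible adipose deletion of Med19. The members were the rows of the gene table named Adrb1, Adrb3, Adra1a, Adra1b, Adra1d, Adra2a, Adra2b and Adra2c, which gave 8 of the 40503 genes listed, with 18 of the 84046 transcripts listed. Med19 is a part of Mediator, a large complex through which transcription factors act on RNA polymerase II. The 5 KO-labelled libraries came from female C57BL/6 mice carrying the tamoxifen-inducible, adipose-specific deletion (Med19-iAKO), given tamoxifen at 100 mg/kg for 5 days at 12 weeks of age, with tissue taken 14 days later. The 5 WT libraries came from female C57BL/6 control mice of the same age. The sources used here do not give whether the control mice received tamoxifen or carried an allele of the model, nor which promoter drove the deletion. Libraries are called by group and number, as labelled.

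Adrenergic receptors are G protein-coupled receptors for noradrenaline and adrenaline. In white fat, beta receptors act through Gs and adenylyl cyclase to raise cAMP, which activates protein kinase A and starts the breakdown of stored triglyceride. Alpha-2 receptors act through Gi and lower cAMP, so they oppose this signal, and alpha-1 receptors act through Gq and phospholipase C. Adrb3 is the beta receptor known as typical of rodent adipocytes, whereas alpha-1 receptors are known in vascular smooth muscle and alpha-2 receptors in both adipocytes and nerve endings.

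Adrb3 RNA (ENSMUSG00000031489) was far lower in the KO-labelled libraries, and it was the 1 receptor gene of the 5 tested that passed the test. The other 4 tested genes, Adra1d, Adrb1, Adra1a and Adra2a, did not pass it, and Adra1b, Adra2b and Adra2c were too low to be tested. The annotated Adrb3 transcripts end their reading frames in 2 ways, and the ends are shown because the transcripts are compared further on. The sequences are from GENCODE M21 on GRCm38, on the minus strand, 5′ to 3′. Lower-case letters are the last 30 bases of the coding exon that all 3 transcripts share, and capitals are the last coding exon with its stop codon. The capitals lie at chr8:27226754-27226793 for the first line and at chr8:27226845-27226896 for the second.
ENSMUST00000081438 and ENSMUST00000121838: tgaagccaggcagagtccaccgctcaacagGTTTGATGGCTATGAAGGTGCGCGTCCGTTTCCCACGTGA
ENSMUST00000117565: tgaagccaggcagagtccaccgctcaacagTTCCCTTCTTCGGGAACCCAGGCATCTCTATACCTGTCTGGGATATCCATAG
The first end closes a frame of 400 codons with 37 bases before the stop codon TGA. The second closes a frame of 404 codons with 49 bases before the stop codon TAG.

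Levels are given as RPKM, reads per kilobase of gene length, scaled to library size, as the authors deposited them. Adrb3 stood at 53.8, 35.9, 54.1, 82.8 and 29.8 RPKM in WT 2, WT 9, WT 19, WT 86 and WT 89. In the KO-labelled libraries it stood at 6.53, 3.99, 10.3, 6.90 and 3.92 RPKM in KO 1, KO 4, KO 7, KO 8 and KO 17. The groups did not overlap, and the highest KO-labelled value, in KO 7, lay below the lowest WT value, in WT 89. The means were 6.32 ± 2.60 RPKM in the KO-labelled group and 51.3 ± 20.6 RPKM in the WT group (SD, n = 5 each). On the log2(RPKM + 0.5) scale Adrb3 fell by 2.92 (SE 0.31; 95% interval of the difference, KO minus WT, -3.61 to -2.22; limma adjusted p = 6.51e-04). That is a 7.55-fold lower level, with an interval of 4.67 to 12.2. Only 5 of the 17038 genes tested had a larger fall. Among all genes tested, 5.95% were called at an adjusted p under 0.05 in either direction (4% higher and 1.95% lower), and in 2.15% every KO-labelled value lay below every WT value. Of all genes, 681 were called higher and 332 lower, a split that was 103 and 417 with median-ratio scaling and 149 and 389 with quantile normalization. The reads behind the Adrb3 values were 197 to 532 per KO-labelled library and 1289 to 3462 per WT library. The call held in each of the 19 alternative settings.

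**Figure D1:**
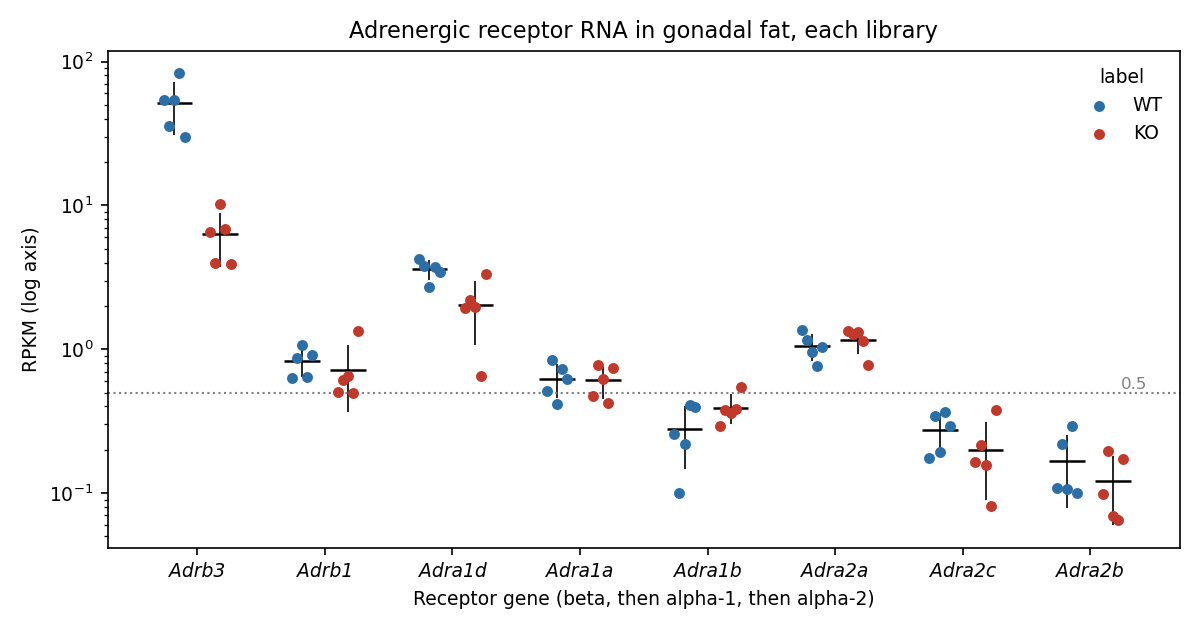
RPKM of each of the 8 receptor genes (log axis) in the 5 KO-labelled and 5 WT libraries; points are libraries, horizontal bars group means, vertical bars the SD, and the dotted line marks 0.5 RPKM. The Adrb3 points of the groups are separate (3.92 to 10.3 RPKM against 29.8 to 82.8 RPKM), and those of the other 7 genes overlap.

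Adrb1 encodes the beta-1 receptor, known best as the main beta receptor of the heart and also present in fat. It stood at 0.502, 0.616, 0.650, 0.498 and 1.34 RPKM in KO 1, KO 4, KO 7, KO 8 and KO 17. In the WT libraries it stood at 0.629, 0.875, 1.07, 0.639 and 0.913 RPKM in WT 2, WT 9, WT 19, WT 86 and WT 89. The highest of all 10 values was a KO-labelled one, KO 17, while 3 of the other KO-labelled values lay below the WT range and KO 7 lay near its lower end. The difference was -0.15 on the log2(RPKM + 0.5) scale (95% interval -0.55 to 0.26; limma adjusted p = 0.676). Without KO 17 it was -0.30, with a limma adjusted p of 0.223. The values rest on 19 to 58 reads per library.

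Among the alpha-1 receptors, Adra1d had the highest level. This receptor is known for contraction of large arteries. Its values were 4.26, 3.77, 2.70, 3.75 and 3.45 RPKM in WT 2, WT 9, WT 19, WT 86 and WT 89. In the KO-labelled libraries they were 1.94, 2.19, 1.97, 0.653 and 3.33 RPKM in KO 1, KO 4, KO 7, KO 8 and KO 17. In this gene 4 of the 5 KO-labelled values lay below every WT value, and KO 17 lay above WT 19. The difference was -0.79 (SE 0.27; 95% interval -1.38 to -0.19) on the log2(RPKM + 0.5) scale, with an unadjusted limma p of 0.0144 and a limma adjusted p of 0.105. It did not pass the test in any of the 19 alternative settings, whose adjusted p-values ran from 0.0627 to 0.185. Without KO 8 the difference was -0.53, and without KO 17 it was -0.96. Across all genes tested, 24.7% had an unadjusted p under 0.05.

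Adra1a, the alpha-1A receptor, stood at 0.477, 0.778, 0.623, 0.425 and 0.735 RPKM in KO 1, KO 4, KO 7, KO 8 and KO 17. The WT values in WT 2, WT 9, WT 19, WT 86 and WT 89 were 0.515, 0.845, 0.417, 0.730 and 0.616 RPKM. The groups overlapped through almost their whole ranges. The difference was -0.02 on the log2(RPKM + 0.5) scale (95% interval -0.34 to 0.30; limma adjusted p = 0.952), and its sign changed in 4 of the 10 fits that left out a library. Adra1b, the alpha-1B receptor, passed 0.5 RPKM in 1 library only. It had 0.393 ± 0.093 RPKM in the KO-labelled group and 0.277 ± 0.129 RPKM in the WT group (SD, n = 5 each), from 5 to 32 reads per library. Fitted with no filter, its difference was 0.21 with a limma adjusted p of 0.479.

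Adra2a encodes the alpha-2A receptor, which inhibits lipolysis in fat cells and noradrenaline release at nerve endings. It stood at 1.33, 1.28, 1.32, 1.13 and 0.772 RPKM in KO 1, KO 4, KO 7, KO 8 and KO 17. In the WT libraries it stood at 1.37, 1.17, 0.958, 0.764 and 1.04 RPKM in WT 2, WT 9, WT 19, WT 86 and WT 89. Both groups spanned nearly the same range. The difference was 0.10 on the log2(RPKM + 0.5) scale (95% interval -0.21 to 0.40; limma adjusted p = 0.723). Adra2b and Adra2c, which encode the alpha-2B and alpha-2C receptors, stayed under 0.5 RPKM in all 10 libraries. Adra2b had 0.120 ± 0.061 RPKM in the KO-labelled group and 0.166 ± 0.087 RPKM in the WT group (SD, n = 5 each), from 4 to 17 reads per library. Adra2c had 0.200 ± 0.111 RPKM and 0.274 ± 0.086 RPKM in the same order, from 4 to 21 reads. With no filter their differences were -0.10 and -0.15, with limma adjusted p-values of 0.669 and 0.634. Of the 5 receptor genes that passed the filter, 4 had a difference below 0, but only Adrb3 was called and Adra1a was at -0.02. The median of the 5 was -0.15 against 0.09 for all 17038 genes tested. The 5 were not tested as a set.

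**Figure D2:**
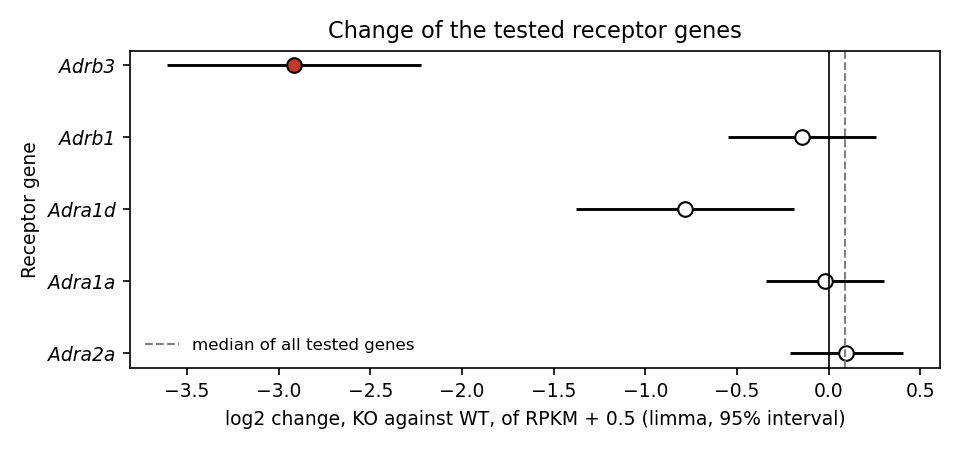
Difference between the KO-labelled and WT groups on the log2(RPKM + 0.5) scale for the 5 tested receptor genes, with 95% intervals; the filled point passed the test and the dashed line is the median of all genes tested (0.09). The Adrb3 interval (-3.61 to -2.22) lies far from 0, the Adra1d interval ends at -0.19, and the others include 0.

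The order of the levels was the same in both groups: Adrb3, then Adra1d, Adra2a, Adrb1, Adra1a, Adra1b, Adra2c and Adra2b. RPKM divides by gene length, and the order of genes with near levels depends on the length used. The length behind the Adra1a values was 8144 bases, while its listed transcripts are 2788 to 4282 bases long. Adra1a had 53 to 128 reads per library, against 19 to 58 for Adrb1, which stood above Adra1a in mean RPKM. The order is therefore that of the deposited RPKM only. In the WT libraries the ranges of Adrb3 and Adra1d were separate, as were those of Adra1d and Adra2a and those of Adra1a and Adra1b. All other neighbours in the WT order overlapped. In the KO-labelled libraries Adrb3 and Adra1d were the only neighbours with separate ranges. The number of genes with a higher mean than Adrb3 was 778 in the WT group and 7810 in the KO-labelled group.

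The make-up of the receptor RNA differed accordingly, which is a restatement of the Adrb3 values and carries no test. Adrb3 made up 81.4% to 92.2% of the summed RPKM of the 8 genes in the WT libraries and 35.0% to 68.0% in the KO-labelled ones. The alpha-1 genes made up 5.45% to 12.2% and 14.4% to 41.2%, and the alpha-2 genes 1.59% to 4.00% and 10.04% to 17.5%, in the same order. In level, the summed alpha-2 RPKM was 1.499 ± 0.190 in the WT group and 1.487 ± 0.178 in the KO-labelled group (SD, n = 5 each). All receptor genes other than Adrb3 summed to 6.81 ± 0.68 RPKM in the WT group and 5.23 ± 1.46 RPKM in the KO-labelled group, and the groups overlapped. The ratio of Adrb3 to Adra2a, the stimulating against the inhibiting receptor, ran from 28.7 to 108 in the WT libraries and from 3.12 to 7.77 in the KO-labelled ones. The ratio of Adrb3 to Adrb1 ran from 32.6 to 130 and from 2.92 to 15.8. The ratio of Adrb3 to Adra1d ran from 8.63 to 22.1 and from 1.18 to 10.6, and there the groups overlapped.

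**Figure D3:**
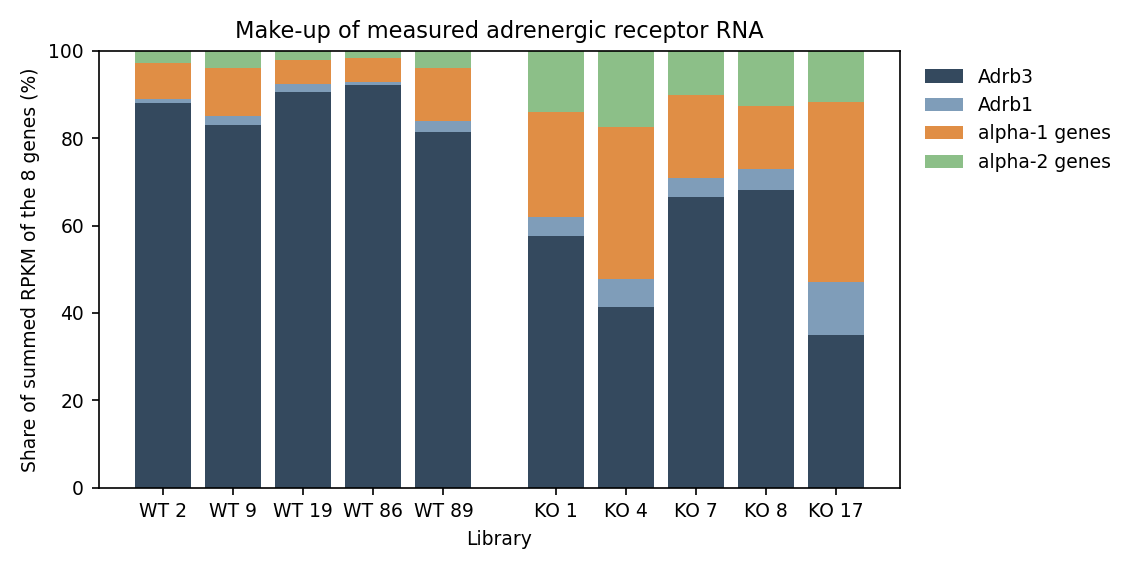
Stacked bars of the share, in percent of the summed RPKM of the 8 receptor genes, of Adrb3, Adrb1, the alpha-1 genes and the alpha-2 genes in each of the 10 libraries. Adrb3 alone makes up 81.4% to 92.2% in the WT libraries and 35.0% to 68.0% in the KO-labelled libraries.

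Of the 18 transcripts of these genes, 6 passed the filter and 2 were called, both of Adrb3 and both lower, against 0.544% of all 44475 transcripts tested that were called and 0.452% that were called lower (0.0922% were called higher). In 1.3% of all transcripts tested every KO-labelled value lay below every WT value. The sources used here do not give how reads were divided among transcripts. ENSMUST00000081438, which ends in the first sequence above, stood at 3.12, 2.22, 7.04, 4.26 and 3.51 RPKM in KO 1, KO 4, KO 7, KO 8 and KO 17. In WT 2, WT 9, WT 19, WT 86 and WT 89 it stood at 24.5, 22.7, 22.2, 39.4 and 16.0 RPKM. The groups did not overlap, and the difference was -2.51 on the log2(RPKM + 0.5) scale (SE 0.29; limma adjusted p = 0.0044). ENSMUST00000121838 has the same coding end and other exons outside the coding region. It stood at 3.79, 1.46, 3.09, 2.39 and 0.232 RPKM in KO 1, KO 4, KO 7, KO 8 and KO 17, and at 27.6, 11.8, 28.8, 40.7 and 13.9 RPKM in WT 2, WT 9, WT 19, WT 86 and WT 89. Again the groups did not overlap, and the difference was -3.31 (SE 0.51; limma adjusted p = 0.0217). That call was lost without KO 4, KO 8, WT 2, WT 19 or WT 86, with limma adjusted p-values of 0.0540 to 0.0669 and differences of -3.39 to -3.09. The transcript with the second coding end, ENSMUST00000117565, was lower in level than both others: 0.270 ± 0.254 RPKM in the KO-labelled group and 2.84 ± 2.05 RPKM in the WT group (SD, n = 5 each). It was listed at 0 in KO 17 and in WT 9, so the groups overlapped, and its difference of -1.79 did not pass the test (limma adjusted p = 0.361). Without WT 9 the difference was -2.38 with a limma adjusted p of 0.0212. This transcript passed the filter narrowly, with at least 0.5 RPKM only in KO 8 and in the WT libraries other than WT 9.

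As a share of the summed RPKM of the Adrb3 transcripts, ENSMUST00000117565 made up 0% to 9.1% in the KO-labelled libraries and 0% to 9.4% in the WT libraries. ENSMUST00000081438 made up 44.4% to 93.8% and 41.3% to 65.7%, in the same order. The highest of these, 93.8%, was in KO 17. The single listed transcripts of Adra1d, Adra2a and Adrb1 gave differences of -0.67, 0.10 and -0.11 on the log2(RPKM + 0.5) scale, with limma adjusted p-values of 0.312, 0.908 and 0.917. For Adra1d, gene and transcript values did not move in step: they were 1.94 and 0.821 RPKM in KO 1, and 0.653 and 0.805 RPKM in KO 8. The Adra1b transcripts ENSMUST00000124306 and ENSMUST00000167574 carried the same values in all 10 libraries, with means of 0.263 RPKM in the KO-labelled group and 0.216 RPKM in the WT group.

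The other 10 transcripts were under the filter too, and the groups overlapped for each. Of the 5 Adra1a transcripts, ENSMUST00000160647, annotated as a retained intron with no coding exon, had 0.420 ± 0.121 RPKM in the KO-labelled group and 0.392 ± 0.107 RPKM in the WT group (SD, n = 5 each). ENSMUST00000159365, the 1 with 3 coding exons, had 0.315 ± 0.080 and 0.468 ± 0.167 RPKM in the same order. The remaining Adra1a transcripts were lower, with KO-labelled and WT means of 0.142 and 0.138 RPKM for ENSMUST00000159068, 0.167 and 0.071 RPKM for ENSMUST00000161339, and 0.074 and 0.060 RPKM for ENSMUST00000054661. For Adra1b, ENSMUST00000067258 had means of 0.026 and 0.008 RPKM, and ENSMUST00000139906 was above 0 in KO 17 only, at 0.118 RPKM. The Adra2b transcripts alternated between libraries: ENSMUST00000104934 was listed above 0 in KO 17, WT 86 and WT 89, at 0.276, 0.368 and 0.202 RPKM, and ENSMUST00000071902 was listed at 0 in those 3 and at 0.161 to 0.337 RPKM in the other 7. The Adra2c transcript ENSMUST00000049545 had means of 0.167 and 0.221 RPKM.

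**Figure D4:**
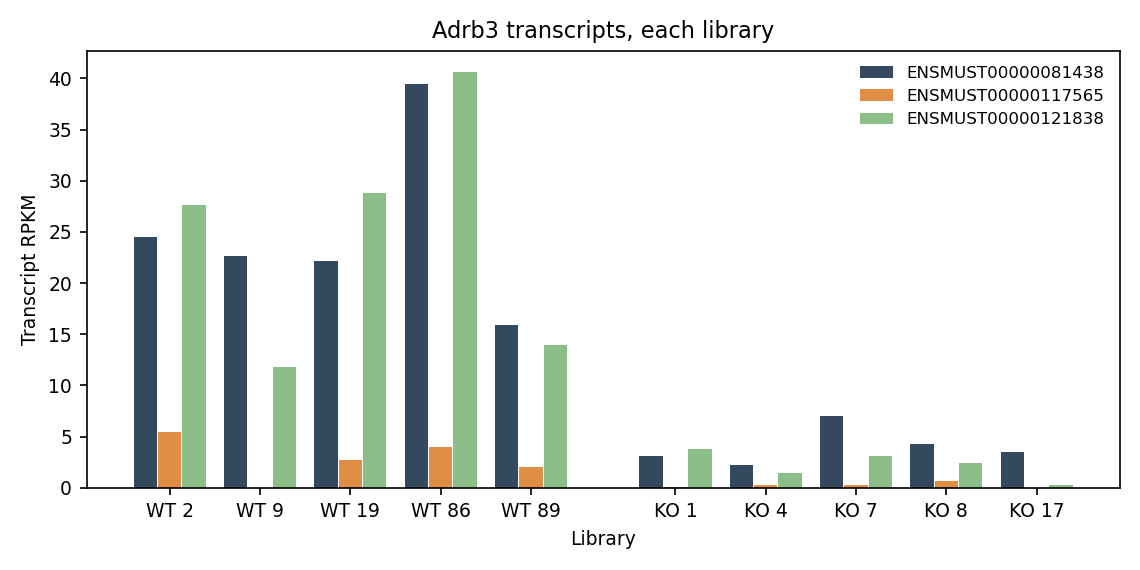
Bars of the RPKM of the 3 Adrb3 transcripts in each of the 5 WT and 5 KO-labelled libraries. ENSMUST00000081438 and ENSMUST00000121838 are separate between the groups, while ENSMUST00000117565 is listed at 0 in KO 17 and in WT 9.

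The genes for these receptors are relatives, and reads of 1 could be counted for another where their sequences match. Between pairs of members, 58.5% to 72.8% of aligned coding bases were identical, highest for Adra2a with Adra2c, and the longest identical run in a pair was 10 to 30 bases. Adrb1 and Adrb3 were identical at 67.3% of aligned coding bases. In GENCODE M21, antisense genes overlap Adrb3 (Gm45470) and Adra1d (Gm14285). The sources used here do not give whether counting used strand, and without strand reads of a gene and its antisense partner cannot be told apart. Gm14285 had at most 0.303 RPKM in any library. Gm45470 is not among the genes the authors listed, so its level is not known and its share in the Adrb3 reads was not tested.

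Markers of fat cells moved with Adrb3. Of 8 adipocyte markers, 7 were called lower, beside 1.95% of all genes tested. The 8 markers summed to 5238 to 5489 RPKM in the KO-labelled libraries and 13007 to 18833 RPKM in the WT libraries. Cfd, which encodes adipsin and is the most abundant of them over all 10 libraries, had 1976 ± 289 RPKM in the KO-labelled group and 8815 ± 1500 RPKM in the WT group (SD, n = 5 each). In the KO-labelled group alone Fabp4 was higher, at 2694 RPKM. In bulk tissue, fewer adipocytes and less RNA per adipocyte cannot be told apart. Set against this sum, Adrb3 was still lower. Per 1000 RPKM of the 8 markers it had 1.21, 0.738, 1.87, 1.30 and 0.748 RPKM in KO 1, KO 4, KO 7, KO 8 and KO 17. The WT values were 4.14, 1.90, 3.82, 4.82 and 2.19 RPKM in WT 2, WT 9, WT 19, WT 86 and WT 89. The groups did not overlap, but KO 7 and WT 9 lay next to each other. The log2 ratio fell by 1.52, a 2.87-fold lower ratio (2-sided exact permutation test over 252 assignments, p = 0.0079, the smallest it can give). Relative to Adipoq alone the difference was -1.81, relative to Plin1 alone -1.84, and relative to the sum without Cfd -2.09, each with the same exact p. The size of the relative fall depends on the marker chosen. Cfd and Cidec had the largest falls of the 8 markers, with log2 differences of -2.15 and -2.08, nearer to the -2.92 of Adrb3. Adrb3 was not tested relative to either of them alone.

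**Figure D5:**
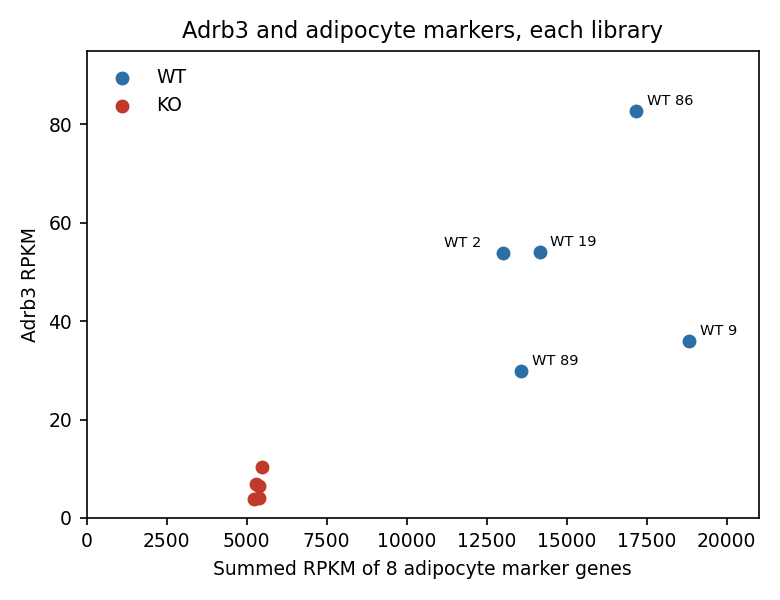
Adrb3 RPKM against the summed RPKM of 8 adipocyte markers in each library, on linear axes. The KO-labelled libraries lie at 5238 to 5489 RPKM of markers and 3.92 to 10.3 RPKM of Adrb3, and the WT libraries at 13007 to 18833 and 29.8 to 82.8 RPKM.

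Adrb3 was also set beside markers of thermogenic fat cells (Ucp1, Cidea, Elovl3, Dio2, Cox7a1 and Zic1), in which this receptor is known. Over 10 libraries that share the groups, Pearson's r of log2(RPKM + 0.5) was 0.94 with the adipocyte sum, and after subtracting group means it was 0.14. With the thermogenic sum it was 0.50 over the 10 libraries and 0.87 after subtracting group means. The value of 0.87 was the highest of all the marker lists. The others ran from -0.41 (macrophage) to 0.28 (lymphocyte) after subtracting group means. The thermogenic sum was 4.79 to 16.6 RPKM in the KO-labelled libraries and 3.08 to 39.4 RPKM in the WT libraries. It was highest in KO 7 (16.6 RPKM) and WT 86 (39.4 RPKM), which also had the highest Adrb3 of their groups. The next highest of each group were KO 4 at 6.17 RPKM and WT 2 at 10.7 RPKM. How far the r of 0.87 rests on KO 7 and WT 86 was not tested. None of the 2 tested genes of the 6 was called.

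In each of the other cell type lists 0 to 2 genes were called, to be read beside the 5.95% of all genes tested that were called. Markers of smooth muscle and pericytes, cells in which alpha-1 receptors are known, summed to 259 to 316 RPKM in the KO-labelled libraries and 280 to 373 RPKM in the WT libraries. Of these 12 genes, Mcam and Cspg4 were called lower, while Acta2, the most abundant, had 72.4 and 74.9 RPKM. The sympathetic nerve markers summed to 6.44 to 8.40 RPKM and 5.72 to 8.87 RPKM, with 0 of 5 tested genes called and a median difference of 0.37 against 0.09 for all genes tested. The tested genes were Npy (0.48), Tubb3 (0.44), Slc6a2 (0.37), Stmn2 (-0.001) and Uchl1 (-0.16). Among those under the filter, Dbh averaged 0.008 RPKM in the KO-labelled group and was at 0 in the WT group, and Th, the first enzyme of catecholamine synthesis, had 0.060 and 0.110 RPKM. Among the rest, 1 of 10 endothelial genes was called lower, 2 of 10 fibroblast and progenitor genes and 1 of 10 macrophage genes were called higher, and no gene of the Schwann cell, lymphocyte, mesothelium, mammary epithelium, ovary and uterus or skeletal muscle lists was called. The part of these cell types in the receptor values was not tested. Med19 itself had 6.79 ± 0.85 RPKM in the KO-labelled group and 6.70 ± 0.89 RPKM in the WT group (SD, n = 5 each; 2-sided exact permutation test, p = 0.881). This level does not check the labels: it comes from whole tissue with an adipose-specific deletion, and whether the deleted allele still gives reads that count for Med19 was not tested.

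Downstream of the receptors, some genes of the cAMP signal and of lipolysis were lower. Of 20 tested genes for cyclases, the cAMP kinase and lipolysis steps, 6 were called lower and 0 higher. The shares over all genes tested were 1.95% and 4%. The median difference of the list was -0.11, against 0.09 for all genes tested. Lipe, which encodes hormone-sensitive lipase, fell from 116 to 40.1 RPKM (log2 difference -1.52, limma adjusted p = 7.89e-06). Plin1, the lipid droplet coat protein phosphorylated by protein kinase A, fell from 322 to 143 RPKM (-1.18). Prkar2b, a regulatory subunit of that kinase, fell from 76.9 to 34.1 RPKM (-1.14), and Pde3b, which degrades cAMP, fell from 26.8 to 13.6 RPKM (-0.95). The other called genes were Pnpla2, at 152 RPKM in the KO-labelled group and 265 RPKM in the WT group (-0.82), and Adcy5, at 15.0 and 25.6 RPKM (-0.76). Adcy5 was the only cyclase called. Lipe and Plin1 are also in the adipocyte marker list. As ratios of group means, Lipe was 2.88-fold lower, and the other called genes ran from 1.71-fold (Adcy5) to 2.26-fold (Plin1). The summed adipocyte markers were 2.86-fold lower. Whether these genes fell apart from the adipocyte markers was not tested.

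Of 26 tested genes for G proteins and phospholipase C, which couple the receptors to their signals, 1 was called lower and 0 higher, beside 1.95% and 4% of all genes tested. Their median difference was 0.08, against 0.09 for all genes. That gene was Gnai1, a Gi alpha subunit through which alpha-2 receptors signal, which fell from 37.2 to 23.9 RPKM (-0.65, limma adjusted p = 0.0194), and its call was lost without KO 1 (limma adjusted p = 0.0550). Gnai2, the most abundant, had 193 RPKM in the KO-labelled group and 167 RPKM in the WT group, with a difference of 0.21 (limma adjusted p = 0.193). Among 24 tested receptor kinases, arrestins and RGS proteins, the median difference was 0.08. Of these, 1 was called higher and 0 lower, beside 4% and 1.95% of all genes tested. The called gene was Arrdc4, an arrestin-domain protein, which rose from 11.2 to 14.8 RPKM (0.39, limma adjusted p = 0.0118).

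For the genes that make, move and break down catecholamines, 11 were tested, with a median difference of 0.23. Of these, 1 was called higher and 1 lower, beside 4% and 1.95% of all genes tested. Maob, a monoamine oxidase, rose from 11.8 to 16.9 RPKM (0.50, limma adjusted p = 0.0377), and this call was lost in 11 of 19 alternatives, with adjusted p-values over all of them of 0.0183 to 0.117. Slc22a3, a transporter that takes up catecholamines, fell from 8.57 to 6.29 RPKM (-0.41, limma adjusted p = 0.0258), and this call was lost when any 1 of KO 1, KO 7, KO 8, WT 9, WT 86 and WT 89 was left out. In a list of genes known to respond to beta-adrenergic signals in adipocytes, 17 were tested, with a median of 0.13. Here too 1 was called higher and 1 lower, beside the same shares of all genes tested. Lpin1, a phosphatidate phosphatase, fell from 56.3 to 25.4 RPKM (-1.09, limma adjusted p = 0.0147), and Angptl4, a lipoprotein lipase inhibitor, rose from 57.8 to 84.6 RPKM (0.56, limma adjusted p = 0.0175).

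The genes whose levels followed Adrb3 most closely over the 10 libraries were ranked by Pearson's r of log2(RPKM + 0.5) among tested genes with a mean of at least 2 RPKM. Predicted genes, clone-named genes and pseudogenes were left out of the ranking. The closest were B3galt2 (r = 0.988), Pfkfb3 (0.986), Rasd1 (0.981), Ffar2 (0.979) and Pdzd2 (0.976). All 5 were lower in the KO-labelled group and passed the test, so the group difference enters these values. After subtracting group means, r was 0.884, 0.873, 0.877, 0.973 and 0.792 in the same order. Closest to Adra1d were Mgat4b (0.920), Gnai1 (0.916) and mt-Tf (0.916). For Adrb1 they were Mir5136 (0.908), Col10a1 (0.882) and Psmf1 (0.863), for Adra1a Cd59a (0.950), Parp16 (0.917) and Sesn3 (0.906), and for Adra2a Prrx2 (0.860), Lsm10 (0.844) and Cnn3 (0.843). Each is the top of a ranking of 11238 or 11239 genes over 10 libraries, and is a description only.

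The libraries held 14443160 to 20182158 reads assigned to genes, with 15181468 to 20182158 in the KO-labelled group and 14443160 to 16188425 in the WT group. The labels give 1 number per library, taken here to stand for 1 animal. The spread behind the exact p-values is that between libraries, and limma also draws on a variance trend over all genes.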

How the data were processed

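RNA of gWAT from female mice was sequenced in 10 libraries as polyA RNA, per the labels. The authors deposited RPKM values per gene and per transcript. STAR, Subread, featureCounts and bcl2fastq are named in the submitters' processing notes, without their roles. The sources used here do not give the build, annotation, filters or strandedness. Repeated rows were used once. RPKM values were whole multiples of 1 read, and whole reads were recovered for 25122 of 25122 genes above 0 in at least 3 libraries (tolerance 0.001 reads), for depth and for an alternative fit.

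Genes or transcripts with RPKM of at least 0.5 in at least 5 libraries were tested with limma 3.58.1 (R 4.3.3) on log2(RPKM + 0.5), eBayes with trend and robust, 2-sided, with a Benjamini-Hochberg adjusted p under 0.05 taken as a call. A log2 difference on this scale understates the change of low genes. Single values used exact permutation tests. The fit was tested on simulated data. No batch or shared number is labelled, so no block was used.

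Named were all receptor genes and transcripts, Med19, up to 4 called members per pathway list (up to 2 abundant ones where fewer than 2 were called), the genes most like each tested receptor gene and the most abundant gene of a marker list. Mcam, Cspg4, Fabp4, Cidec, Adcy5, Pnpla2 and the nerve genes were added after seeing their values. The members and lists were chosen with earlier results of these data known. Alternatives were a filter of 1 RPKM or none, a pseudocount of 0.1 or 1, median-ratio and quantile scaling, other variance settings, array weights, voom on recovered reads and leaving out each library.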

Additional observations from a re-analysis of the deposited data

Results flagged for a closer look

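In KO 17, Adrb1 stood at 1.34 RPKM, away from the other 4 KO-labelled libraries at 0.498 to 0.650 RPKM. Its transcript ENSMUST00000038949 stood apart in the same library, at 1.09 RPKM against 0.395 to 0.529 RPKM. Both values measure the same gene in the same library, so they are not separate observations. The Adra1d transcript ENSMUST00000103184 stood at 1.77 RPKM in WT 19, below the other 4 WT libraries at 2.40 to 2.63 RPKM. These are the 3 groups, of 28 examined, in which the gap to the nearest library exceeded 0.71 of the whole range (Dixon's criterion), and chance gives about 1 in 20.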

How the results depend on the processing

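The Adrb3 call held in all 19 alternatives (differences of -3.10 to -2.72; limma adjusted p 4.84e-04 to 0.00297), and no receptor gene was gained. ENSMUST00000081438 was called in all 14 of its alternatives. Leaving out a library gave -3.53 to -2.89 for ENSMUST00000121838, and 1 to 3 called receptor transcripts against 2. For ENSMUST00000117565 the range was -2.38 to -1.65, in the fits without KO 1, KO 4, KO 7, KO 17 or WT 9. Without KO 8, WT 2, WT 19, WT 86 or WT 89 that transcript was under the filter and was not fitted. The count of all genes called higher moved from 681 to 292 with no filter, 103 with median-ratio scaling, 149 with quantile normalization and 188 to 689 without 1 library; the scalings gave 417 and 389 genes called lower against 332, and leaving out a library 206 to 314. Transcripts called higher went from 41 to 14 to 44, and lower from 201 to 120 to 175, without 1 library. The cause was not tested. No paired analysis was possible because the groups share no library numbers. Few reads limit Adra1b, Adra2b and Adra2c.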

Other observations

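KO 17 had the highest Adrb1, Adra1b, Adra1d and Adra2c of the KO-labelled libraries and the lowest Adrb3 and Adra2a. Ucp1, the uncoupling protein of thermogenic fat, stood at 5.70 RPKM in KO 7 and at 0 to 0.0794 RPKM in the other 4 KO-labelled libraries. In the WT libraries it stood at 13.4, 2.78, 1.43, 0.456 and 0.203 RPKM in WT 86, WT 2, WT 19, WT 9 and WT 89. The WT libraries with more Ucp1 than WT 9 and WT 89 were also the 3 with the most Adrb3. Among the receptor genes, Pearson's r over the 10 libraries was 0.79 for Adra2b with Adra2c, 0.76 for Adra1a with Adra2b, with Adra2c, and for Adra1d with Adra2c, and -0.67 for Adra2a with Adra2c. These pairs share libraries and rest on few reads. Ucp1 and these pairs were chosen after their values were seen.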
